A study of Mus musculus with 2 samples.

Results

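The angiopoietin and Tie receptor genes comprise 7 listed genes, Angpt1, Angpt2, Tek, Tie1, Ptprb, Angptl2 and Angptl4. They were found on the arrays as every probe set whose only gene symbol in the platform annotation was one of these names, which gave 11 probe sets for 6 of the 18193 genes with a symbol of their own. Angptl2 was not analysed here. RNA of vascular cells from old C57BL/6J mice was compared with the same preparation from young C57BL/6J mice, with 1 one-colour Affymetrix array each. In both groups the left lung had been resected (pneumonectomy) and vascular cells were sorted by flow cytometry from the right lobes that remained. How old the mice were, when after surgery they were sampled, how cells were gated and whether mice were pooled is not stated in the labels, and unoperated mice were not analysed here. Old cells and young cells are the names used for the 2 samples as labelled. The lung label of the old sample is in doubt, because markers of liver sinusoidal endothelium and of hepatocytes were far higher in it than in the young sample. In the young sample most markers of lymphatic endothelium were in turn higher, so its make-up is also open. Every ratio between old and young cells therefore compares samples that also differ in these transcripts, and age and cell origin cannot be told apart. With 1 array a group no difference has a replicate check, no test was possible, and the number of arrays limits the precision of every value.

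Angiopoietins are secreted ligands of Tie2, the receptor tyrosine kinase of endothelium that Tek encodes. Angpt1, made mainly by cells around the vessel, activates the receptor and keeps vessels quiet and tight, whereas Angpt2, made and stored by endothelial cells, opposes or weakly mimics it depending on context and is known from sprouting and inflamed vessels. Tie1 is a related receptor that joins Tie2 in a complex, and Ptprb encodes VE-PTP, an endothelial phosphatase that removes phosphate from Tie2. Angptl2 and Angptl4 have the domain plan of angiopoietins but do not act through Tie2, and Angptl4 is an inhibitor of lipoprotein lipase.

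The receptor gene Tek and the phosphatase gene Ptprb had higher signal in old cells, by 5.91-fold and 3.55-fold. The ligand gene Angpt2 and the lipase inhibitor gene Angptl4 had lower signal in old cells, with young cells higher by 4.64-fold and 2.73-fold. Tie1 and Angpt1 differed by less than 2-fold. Thus 2 of the 6 measured genes were 2-fold or more higher in old cells and 2 in young cells. Over all 12105 genes at or above the floor on at least 1 array, 16.0% were 2-fold or more higher in old cells and 11.3% in young cells, 27.3% in either direction. The median log2 ratio (old minus young, as all log2 ratios here) was -0.47 over the 6 genes and 0.03 over all measured genes.

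Signals are MAS5 intensities on a linear scale after both arrays were scaled to a median log2 ratio of 0. The floor, 73.7 signal units, is the median over all probe sets, and values below it are not ordered. Over 4514 genes with several probe sets at or above the floor on both arrays, the log2 ratio varied between probe sets of 1 gene with an SD of 0.42. This spread describes the probes and not the mice. The trimmed mean of the deposited values was 500.003 on both arrays. Actb, a check on RNA degradation, had a 3' to 5' ratio of 1.32 in old cells and of 1.20 in young cells, and Gapdh, a second such check, one of 0.718 in old cells and of 0.806 in young cells.

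The label of vascular cells was set against markers. All 20 pan-endothelial markers reached the floor on both arrays, with a median log2 ratio of 0.39, and 6 were 2-fold or more higher in old cells, led by Sox17, Robo4 and Clec14a, and 1, Emcn, in young cells. Of 11 liver sinusoidal endothelial markers, however, 10 were 2-fold or more higher in old cells, led by the mannose receptor gene Mrc1 (at least 374-fold), Oit3 (at least 237-fold) and Dnase1l3 (at least 236-fold). All 15 measured hepatocyte markers were also on that side, with Alb, the albumin gene, at least 121-fold, Ttr at least 30.8-fold and Hpx at least 21.0-fold higher. Of 12 lung epithelial markers 6 were measured, with a summed signal over the list of 1159 in old cells and 572 in young cells. Among them Cdh1 (at least 3.98-fold) and Hopx (3.95-fold) were higher in old cells and Ager (2.08-fold) in young cells, although the 2 probe sets of Hopx had log2 ratios of 0.054 and 1.98. Sftpc, Sftpa1, Scgb1a1, Nkx2-1, Aqp5 and Cldn18 were below the floor on both arrays. Of 7 measured lymphatic endothelial markers 5 were 2-fold or more higher in young cells and 0 in old cells. In young cells Nts (10414) and Prox1 (6885) had a higher signal than the pan-endothelial marker Pecam1 (6239). In sorted cells measured in bulk, fewer cells of a type and less RNA per cell cannot be told apart.

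**Figure D1:**
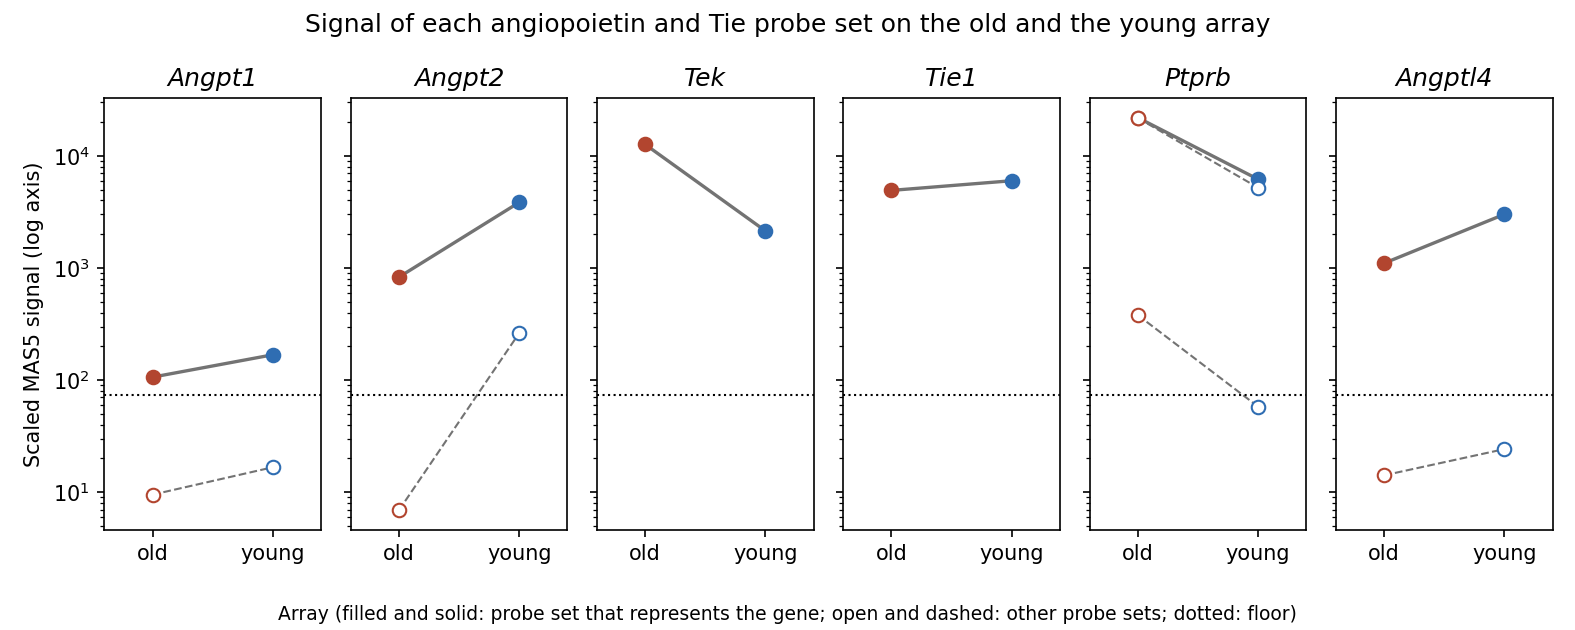
Scaled MAS5 signal (log axis) of each of the 11 probe sets on the old (red) and the young (blue) array, 1 panel a gene, with the floor of 73.7 as a dotted line. Tek and all 3 probe sets of Ptprb slope down toward young cells, Angpt2 and Angptl4 slope up, and the line of Tie1 is nearly level.

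Among the ligands, Angpt1 was close to the floor on both arrays. Its brighter probe set had a signal of 106 in old cells, against 168 in young cells. The log2 ratio was -0.66, so young cells were higher by 1.58-fold, within 2-fold. The other Angpt1 probe set had 9.52 in old cells and 16.7 in young cells, both below the floor, and gives no ratio. Angpt1 was thus measured by 1 probe set, at low signal.

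Markers of cells around the vessel, a known source of Angpt1, were mostly higher in old cells, while Angpt1 itself was within 2-fold. Of 10 measured pericyte and smooth muscle markers 8 were 2-fold or more higher in old cells and 0 in young cells, with a median log2 ratio of 2.18, and their summed signal was 25012 in old cells and 504 in young cells. Acta2, smooth muscle actin, was 134-fold, Tagln 55.8-fold and Des, desmin, at least 10.9-fold higher in old cells, although the probe sets of Acta2 spread from 0.67 to 7.07 in log2 ratio. Of 8 measured fibroblast markers 6 were higher in old cells and 0 in young cells (median 3.47, summed signal 23046 in old cells and 411 in young cells), led by the collagen genes Col3a1 (at least 118-fold), Col1a2 (at least 110-fold) and Col1a1 (at least 37.1-fold). The mural marker Higd1b did not reach the floor on either array. The fibroblast markers Pdgfra and Tcf21 were not counted, because the probe set that stood for each was below the floor on both arrays. Another probe set of each gene did reach it, with a log2 ratio or bound of 0.29 for Pdgfra and 0.35 for Tcf21. Platelets are another known source of angiopoietin. Of 5 measured platelet markers 2 were higher in old cells, Pf4 (7.98-fold) and Ppbp (at least 3.44-fold), and 0 in young cells. Itga2b (log2 ratio 0.90), Gp5 (bound 0.075) and Gp9 (bound -0.78, above the floor in young cells only) did not pass 2-fold. Gp6 was below the floor on both arrays. The list had a median of 0.90 and a summed signal of 1502 in old cells and 533 in young cells. The part of these cells in the Angpt1 value was not tested.

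Angpt2 was lower in old cells by both of its probe sets. The brighter probe set had a signal of 829 in old cells, against 3844 in young cells, a log2 ratio of -2.21. The second had 6.90 in old cells, below the floor, against 262 in young cells, so that young cells were at least 3.56-fold higher. Both probe sets therefore placed the gene on the young side by more than 2-fold. Of 10004 genes at or above the floor on both arrays, 241 (2.41%) had a log2 ratio as low as that of Angpt2 or lower. The difference between the log2 ratios of Angpt2 and Angpt1 was -1.55, a value that does not depend on the scaling factor between the arrays and ranged from -1.65 to -1.36 over the ways of processing that gave it.

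Genes of lymphatic endothelium, which is known to make Angpt2, were on the same side. Of 7 measured lymphatic markers 0 were 2-fold or more higher in old cells and 5 in young cells, with a median log2 ratio of -5.23 and a summed signal of 35086 in old cells and 64662 in young cells. The neuropeptide gene Nts was at least 141-fold higher in young cells, Mmrn1 135-fold and Prox1, which sets lymphatic fate, at least 93.4-fold. The probe sets of Mmrn1 disagreed, with log2 ratios between -7.07 and -0.11. Its signal of 74.6 in old cells was just above the floor. Prox1 and Nts were below the floor in old cells, while Lyve1 (14901 in old cells, 16120 in young cells) and Flt4 (18035 in old cells, 10262 in young cells) were within 2-fold. Each was represented there by its brighter probe set. The other Lyve1 probe set had a log2 ratio of -1, at the 2-fold rule, and the other Flt4 probe set one of -0.15. Lyve1 and Flt4 made up most of the summed signal of the list in old cells. The part of lymphatic cells in the Angpt2 value was not tested.

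The receptors parted. Tek had a signal of 12635 in old cells, against 2139 in young cells, by its only probe set. The log2 ratio was 2.56, and 304 of 10004 genes (3.04%) had a ratio as high or higher. Tie1, also read by 1 probe set, had 4920 in old cells, against 5998 in young cells. Its log2 ratio was -0.29, less than the SD of 0.42 between probe sets of a gene. That spread comes from other genes and gives no error for the Tie1 ratio itself. The difference between the log2 ratios of Tek and Tie1 was 2.85. A scaling factor, a floor or the choice of probe set could not alter it, as each gene had 1 probe set, far above the floor. Among the ways of processing that could, quantile normalization gave 2.81, loess 2.86 and the offset 2.83. Of the 2 receptor genes, Tek alone was past 2-fold.

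Ptprb was higher in old cells by all 3 of its probe sets. The brightest had a signal of 21917 in old cells, against 6179 in young cells, a log2 ratio of 1.83. The second had 21751 in old cells and 5200 in young cells (log2 ratio 2.06). The third, much dimmer, had 380 in old cells and 58.0, below the floor, in young cells, which makes old cells at least 5.16-fold higher. The phosphatase gene therefore lay on the same side as the gene of its substrate Tek. Ptprb stood above Tie1 by 2.11 log2 units.

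**Figure D2:**
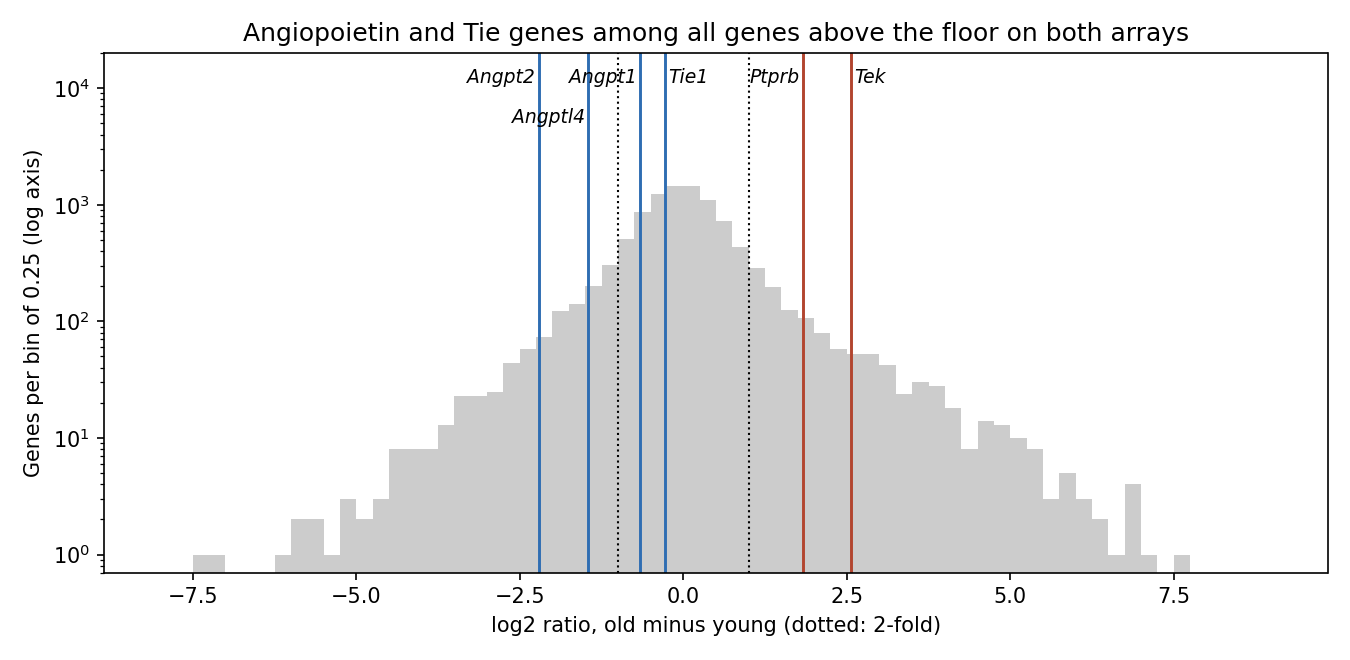
Histogram of the log2 ratio (old minus young) over the 10004 genes at or above the floor on both arrays (log count axis, bins of 0.25), with vertical lines at the 6 angiopoietin and Tie genes and dotted lines at 2-fold. Tek at 2.56 and Ptprb at 1.83 lie in the right flank, Angpt2 at -2.21 and Angptl4 at -1.45 in the left flank, and Angpt1 and Tie1 near the centre.

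Against the 20 pan-endothelial markers, all at or above the floor on both arrays, Tek and Ptprb each had a higher log2 ratio than 17, and Angpt2 and Angptl4 a lower one than all 20. Tie1 was below 16 of them and Angpt1 below 18. The markers themselves ran from -1.12 for Emcn to 6.08 for Sox17, whose young signal of 74.9 was just above the floor. Closest to Tek were Clec14a, an endothelial lectin-like receptor gene (2.84, with 13356 in old cells and 1866 in young cells), Robo4, an endothelial guidance receptor gene (3.19), and Sox7, a transcription factor gene (1.48, with its probe sets between 0.47 and 1.48). Closest to Tie1 were Fli1, an Ets factor gene (-0.40), Ptprm, a receptor phosphatase gene (-0.08), and Pecam1 (-0.04, with 6049 in old cells and 6239 in young cells). Closest to Ptprb were Sox7, the junction gene Esam (1.42) and Eng, a TGF-beta co-receptor gene (1.35). Likeness here is the difference in log2 ratio over 2 arrays, which many genes share. When both arrays were instead scaled to a median of 0 over these markers, a choice made after the data were seen, Tek had 2.18, Ptprb 1.44, Tie1 -0.67, Angptl4 -1.84 and Angpt2 -2.60. Angpt1 then had -1.05 and passed 2-fold on the young side.

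Beside the values of Tek and Ptprb, other cell types also stood on the old side. Of 14 leukocyte and macrophage markers 13 were 2-fold or more higher there and 0 in young cells (median 4.29), with a summed signal of 30007 in old cells and 978 in young cells, and with Csf1r 77.2-fold, Fcer1g at least 62.3-fold and Lyz2 at least 56.5-fold higher. The young signal of Csf1r, 75.6, was just above the floor, and Lyz2 shares much of its sequence with Lyz1. Tek is also known from a subset of monocytes. The liver sinusoidal markers had a median log2 ratio of 5.70 and a summed signal of 202746 in old cells and 13527 in young cells, and the hepatocyte markers a median of 2.80 and a summed signal of 21188 in old cells and 920 in young cells. The part of these cells in the Tek and Ptprb values was not tested.

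The start sites of the receptor pair are shown because Tek and Tie1 differed in how they compared between the arrays. Each sequence runs from 250 bases before to 50 bases after a RefSeq start site of the mouse build GRCm38.p6, with Tek at chr4:94739039-94739338 on the plus strand and Tie1 at chr4:118489800-118490099 on the minus strand, and capitals mark motif matches.
Tek: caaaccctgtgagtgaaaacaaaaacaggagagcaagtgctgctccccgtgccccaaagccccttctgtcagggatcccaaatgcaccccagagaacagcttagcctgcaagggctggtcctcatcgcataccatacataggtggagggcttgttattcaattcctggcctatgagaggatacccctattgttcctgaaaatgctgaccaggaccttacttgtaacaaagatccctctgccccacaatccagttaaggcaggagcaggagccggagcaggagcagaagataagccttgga
Tie1: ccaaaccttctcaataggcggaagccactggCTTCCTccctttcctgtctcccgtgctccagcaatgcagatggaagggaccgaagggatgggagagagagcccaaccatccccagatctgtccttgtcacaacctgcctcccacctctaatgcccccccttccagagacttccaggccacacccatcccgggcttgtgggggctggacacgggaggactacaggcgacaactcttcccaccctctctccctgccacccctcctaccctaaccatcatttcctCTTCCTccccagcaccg
Both strands were searched for the Ets motifs CCGGAAG and AGGAAG, which share their last 5 letters, the forkhead motif TGTTTAC and the hypoxia-response core ACGTG. The Tie1 window held 2 copies of AGGAAG, both on the reverse strand, and the Tek window held 0 of the 4 motifs. AGGAAG was found in 35.4% of 32851 promoter windows of the same length, CCGGAAG in 8.86%, TGTTTAC in 3.65% and ACGTG in 19.6%. The matches are a description of these letters in these windows.

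Angptl4 was lower in old cells. Its brighter probe set had a signal of 1102 in old cells, against 3011 in young cells, a log2 ratio of -1.45. This probe set is of the shared-sequence kind (its ID ends in _s_at), whose probes can match more than 1 transcript. The second probe set, with 14.2 in old cells and 24.2 in young cells, was below the floor on both, so no ratio for Angptl4 remains once shared-sequence probe sets are left out. Of 10004 genes, 600 (6.00%) had a ratio as low or lower.

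The lipase that Angptl4 inhibits and its capillary anchor went the other way. Lpl, lipoprotein lipase, had 1588 in old cells and 108 in young cells, and was 14.8-fold higher in old cells. Its 2 probe sets had log2 ratios of 2.64 and 3.88, and its young signal was near the floor of 73.7. Gpihbp1, which holds the lipase on capillary endothelium, had 32563 in old cells and 911 in young cells, and was 35.7-fold higher in old cells. These 2 belong to a list of 12 binding partners and substrates of the family, of which 6 were 2-fold or more higher in old cells and 1 in young cells (median log2 ratio 0.91), against the 16.0% and 11.3% of all measured genes. The count on the old side was 4 under loess and 5 under quantile normalization, and stayed at 6 as deposited and with trimmed means. Plg, the plasminogen gene and a hepatocyte transcript, was at least 5.89-fold and Svep1, which encodes a matrix protein that binds Tie1, at least 2.46-fold higher in old cells. The gene on the young side was Itgb3, an integrin chain reported to bind Angpt2, with 318 in old cells and 2333 in young cells (7.33-fold higher in young cells), although its probe sets spread from -2.87 to -0.23 in log2 ratio.

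Angptl4 is a textbook target of the PPAR nuclear receptors. Of 10 measured PPAR receptor and target genes 2 were 2-fold or more higher in old cells and 1 in young cells. These counts are near the shares over all measured genes, 16.0% and 11.3%. Cd36, a fatty acid transporter gene, was 110-fold higher in old cells, with a young signal of 98.9, and Pdk4, a kinase that restrains glucose oxidation, was at least 54.1-fold higher. Pparg itself, read by 1 measured probe set, had 110 in old cells and 1212 in young cells, and was 11.0-fold higher in young cells. The part of PPAR receptors in the Angptl4 value was not tested. The list's median was -0.03 and its mean 0.93, of opposite sign. Ppara was below the floor on both arrays.

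Angpt2 is likewise a known target of FOXO1, the forkhead factor that Tie2 signalling restrains through AKT. Of 14 FOXO1 target genes 8 were 2-fold or more higher in old cells and 1 in young cells (median 1.09). Over all measured genes the shares were 16.0% and 11.3%. The count on the old side was 6 of 14 under each of 5 other scalings, which were loess, quantile, pan-endothelial and trimmed-mean scaling and no rescaling. Pdk4 led, followed by the endothelial gene Esm1 (at least 13.3-fold), the ubiquitin ligase gene Fbxo32 (4.77-fold) and the binding protein gene Igfbp1 (at least 3.46-fold). Sesn3, a stress-response gene, was 11.1-fold higher in young cells. Igfbp1 is also made by hepatocytes, whose markers were higher in old cells, and its part in the count was not tested. Foxo1 itself had 1728 in old cells and 2241 in young cells (log2 ratio -0.38). The part of FOXO1 in the Angpt2 value was not tested.

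Adaptors and effectors downstream of Tie2 were mostly within 2-fold. So were most genes, since 27.3% of all 12105 measured genes were 2-fold or more apart. Of 13 measured adaptors and effectors 11 were within 2-fold, 1 was higher in old cells and 1 in young cells. Their median log2 ratio was 0.0011 and their mean -0.018. The exception on the young side was Shc1, an adaptor that joins receptors to the RAS pathway, with 878 in old cells and 3626 in young cells and a log2 ratio of -2.05 and -2.04 by its 2 probe sets. On the old side Grb14, an adaptor gene, was at least 2.19-fold higher. Akt1 had 3227 in old cells and 2747 in young cells, and Nos3, endothelial nitric oxide synthase, had 4066 in old cells and 3136 in young cells.

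Other angiopoietin-like genes were near or below the floor. Angpt4, a further Tie2 ligand, had 169 in old cells and 30.5 in young cells, at least 2.30-fold higher in old cells, with its 2 probe sets at 1.16 and 1.20. Angptl6 had 121 in old cells and 96.0 in young cells, within 2-fold. Angptl1, Angptl7 and Angptl8 did not reach the floor on either array.

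**Figure D3:**
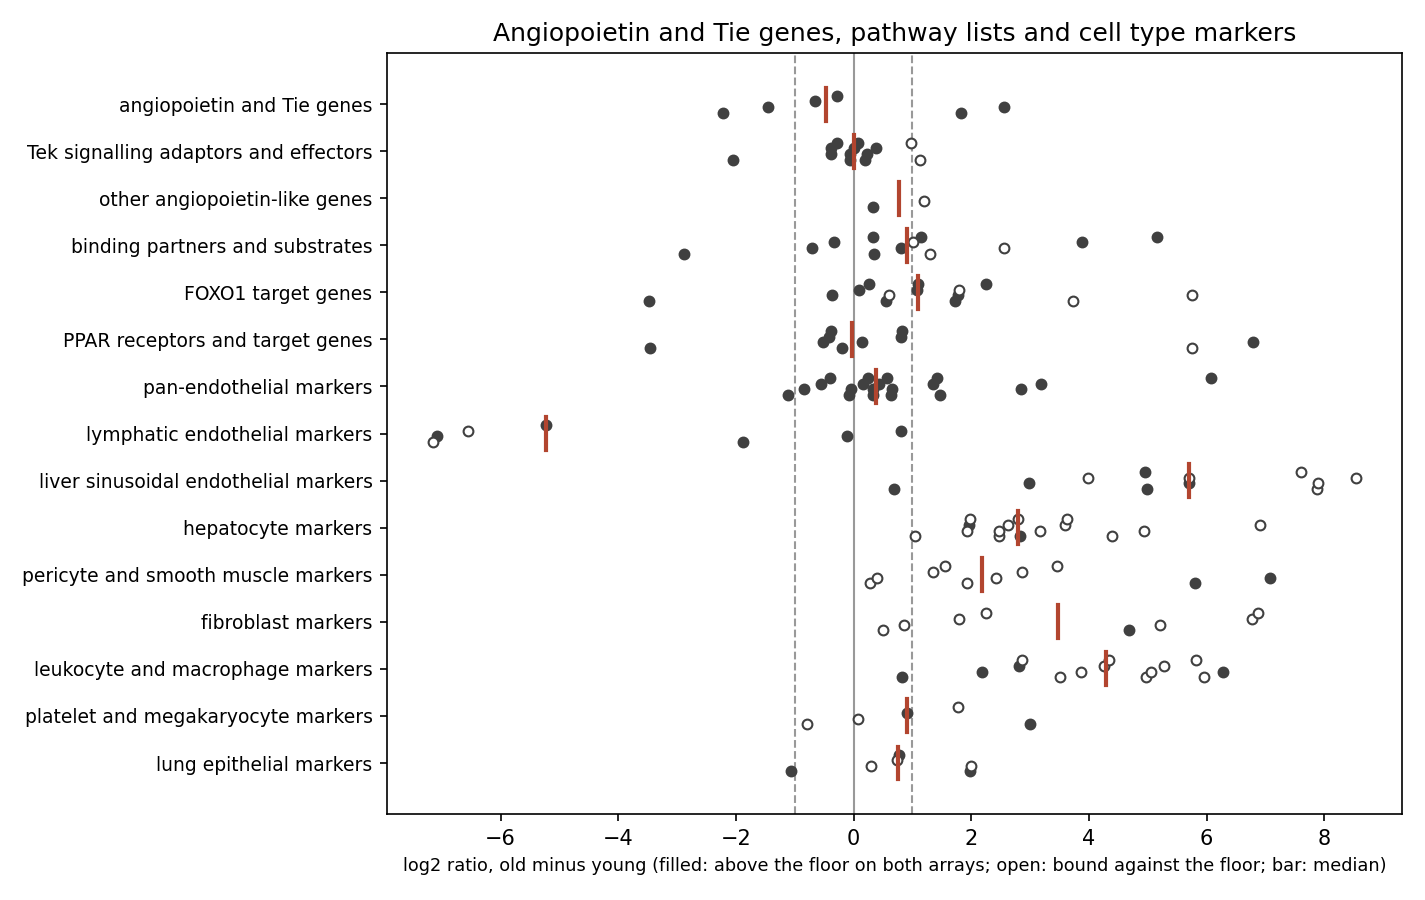
log2 ratio (old minus young) of each measured gene in the angiopoietin and Tie group, in 5 pathway lists and in 9 cell type marker lists, with bars at the medians, filled points for genes at or above the floor on both arrays and open points for bounds. The angiopoietin and Tie genes spread from -2.21 to 2.56 around a median of -0.47, lymphatic markers lie to the left and liver, fibroblast and leukocyte markers to the right.

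**Figure D4:**
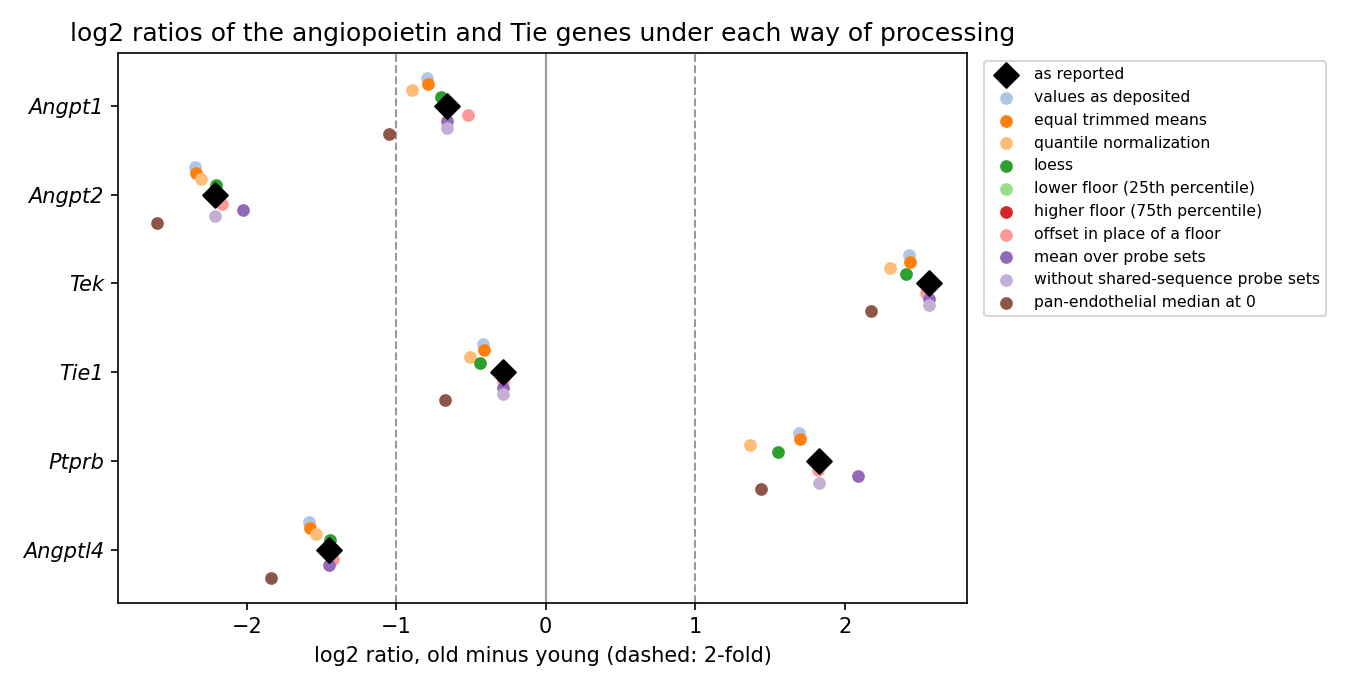
log2 ratio (old minus young) of the 6 genes as reported (black diamonds) and under each alternative (coloured points), with dashed lines at 2-fold. Tek stays between 2.18 and 2.56, Ptprb between 1.36 and 2.09, Angpt2 between -2.60 and -2.02 and Angptl4 between -1.84 and -1.42, while Tie1 stays within 2-fold and Angpt1 crosses it under 1 alternative.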

How the data were processed

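The authors deposited MAS5 signal intensity on a linear scale, 1 value a probe set, made with GCOS 1.4 and MAS5 per the submitters' processing notes. Per the labels' protocols, biotin-labelled cRNA was made from oligo-dT primed cDNA. Detection calls and scanner files were not used here, and no genome build is stated.

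The 64 control probe sets among 45101 were dropped. Names came from the platform annotation, in which 34958 probe sets had 1 symbol, 932 several and 9211 none. By Entrez identifier 34754 matched current RefSeq genes and 0 symbols changed. Arrays were scaled to a median log2 ratio of 0 over probe sets at or above each array's median (factors 1.05 for old and 0.956 for young). The floor was the higher of both medians after scaling. Of several probe sets the one with the highest mean log2 signal stood for the gene, and a gene above the floor on 1 array has a lower bound against the floor. The call rule was 2-fold, with no test at 1 array a group.

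The genes, lists and rules were chosen with earlier results of these data known. Named were all 6 genes, up to 4 genes a direction of each pathway list past 2-fold (every gene of the other angiopoietin-like list), up to 3 a direction of each marker list, and for Tek, Tie1 and Ptprb the 3 pan-endothelial markers nearest in log2 ratio. Further genes that appear, such as Foxo1, Akt1 and Nos3, were picked with their values in view. Promoter sequences are from RefSeq, which gave a window for 2 of the 6 measured genes. Protein identity was not analysed here. Alternatives were other scalings (as deposited, trimmed means at 2%, quantile, loess with span 0.4), floors at the 25 and 75 percentiles, an offset of 0.5 times the floor, the mean over probe sets and leaving out _x_at and _s_at probe sets. Scaling on pan-endothelial markers was added after seeing the data. The procedure was tested on simulated data. Scripts ran in Python 3.11.15 with matplotlib 3.10.9, statsmodels 0.14.6, scipy 1.17.1, pandas 2.3.3 and numpy 2.4.6.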

Additional observations from a re-analysis of the deposited data

How the results depend on the processing

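Tek and Ptprb were past 2-fold on the old array and Angpt2 on the young under all 10 alternatives, Tie1 was within 2-fold under all 10, and no called value changed sign. Without shared-sequence probe sets 1 gene, Angpt2, was counted on the young side, against 2, since Angptl4 had no ratio. Angptl4 was past 2-fold under the other 9. Angpt1 had no ratio with the higher floor (488.5) and passed 2-fold only with pan-endothelial scaling (-1.05). Quantile normalization gave 1.36 for Ptprb, against 1.83. The median log2 ratio over all genes above the floor on both arrays was -0.02, and it was -0.14 as deposited and with trimmed means, -0.12 with quantile normalization and -0.39 with pan-endothelial scaling. No paired analysis was possible because each group has 1 array, and no array could be left out. Low signal limits Angpt1, the second probe sets of Angpt2 and Angptl4, and every bound.

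For the lists, quantile normalization gave medians of -0.043 for pan-endothelial and 5.22 for liver sinusoidal markers, and counted 1 platelet marker on the young side, against 0. Loess counted 2 and the lower floor (20.3) 3 Tie2 adaptors on the old side, against 1, and the lower floor counted 2 other angiopoietin-like genes there, against 1, and 1 platelet marker on the young side. The lower floor gave medians of 4.34 for hepatocyte, 3.60 for pericyte and smooth muscle and 6.15 for leukocyte markers. The higher floor counted on the old side 0 adaptors, 3 binding partners (median 0.33), 5 FOXO1 targets, 5 hepatocyte, 2 pericyte and smooth muscle and 0 platelet markers, against 1, 6, 8, 15, 8 and 2, because fewer genes reach it and bounds against it are smaller. Its medians were -3.04 for lymphatic, 4.96 for liver sinusoidal, 1.50 for hepatocyte, 1.56 for leukocyte and 0.43 for platelet markers. The offset gave medians of 5.20 for liver sinusoidal, 3.49 for hepatocyte and 5.28 for leukocyte markers and 0 lung epithelial markers on the young side, against 1. The mean over probe sets gave medians of -3.59 for lymphatic, 4.98 for liver sinusoidal and 2.02 for fibroblast markers. Pan-endothelial scaling counted on the young side 2 binding partners, 2 pan-endothelial markers and 1 platelet marker, against 1, 1 and 0. Where no construction is named, the cause was not tested.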
